A study of Mus musculus with 15 samples.

Results

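The corepressor partner genes of Foxp1 were examined as a set of 9 mouse genes, *Mta1, Mta2, Hdac1, Hdac2, Chd4, Gatad2b, Ctbp1, Ctbp2*, and *Ncor1*. They were chosen by name, as genes of the NuRD, CtBP, and NCoR/SMRT complexes. No measured value entered the rule, but earlier results of these data were known. All 9 were found among the 41388 genes counted, and 8 of them were among the 13904 genes with enough counts to be tested. *Ctbp2* was not.

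Foxp1 is a forkhead transcription factor that represses many of its targets by recruiting corepressor complexes to DNA. NuRD joins a nucleosome remodelling ATPase, *Chd4*, to the histone deacetylases encoded by *Hdac1* and *Hdac2*, with the Mta proteins as the scaffold that holds the deacetylases and *Gatad2b* as a bridging subunit. The CtBP proteins are NAD(H)-binding corepressors that bring histone-modifying enzymes to transcription factors, and *Ncor1* is a scaffold that binds and activates the deacetylase *Hdac3*. The loss of a transcription factor can leave its partners in the cell, so the expression of these genes in Foxp1-depleted B cells shows which parts of the machinery were still transcribed.

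RNA sequencing was carried out on A20 cells, a B-cell lymphoma line from BALB/c mice, in 5 lines with 3 biological replicates each, 15 libraries in all. The parental line was WT for *Foxp1*. The clones E6.1 and E6.2 carried a mutation in *Foxp1* exon 6, and the clones E7.1 and E7.2 carried one in exon 7, all made by CRISPR/Cas9 editing. By Western blotting, the paper reported loss of full-length Foxp1 in most clones of either guide. Exon 6 targeting removed only the larger of the short isoforms, whereas exon 7 targeting removed every isoform found in the parental cells. The replicates of a line came from separate passages, so each mutant line is 1 clone and the replicate error is the spread between passages of that clone.

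Total counts per library ranged from 26328054 to 39181530. The B-cell markers were abundant (*Cd74*, the MHC class II invariant chain, at 1975 to 3205 CPM), 5 T-cell genes summed to 0.150 to 0.607 CPM, led by *Cd4*, with *Cd3e* and *Cd8b1* at 0 counts in all libraries, and 4 macrophage genes summed to 4.96 to 32.4 CPM, led by *Cd68*. Libraries E6.2 replicate 1, E6.2 replicate 3, and E7.2 replicate 3 stood apart. The first had 10.3% of its counts on *Gm42418*, a gene that overlaps ribosomal RNA, where the other libraries had 0.0604 to 2.22%. The third had 10.4% of its counts on mitochondrial genes, and its deviations from the mean of its line correlated across genes with those of E6.2 replicate 3 (r = 0.426), more than in any other pair with a shared replicate number. The targeted gene, *Foxp1*, fell in E7.1 (log2 fold change -1.29, adjusted p = 0.00688) and E7.2 (-1.69, adjusted p = 0.00116) but was not called in E6.1 (-0.41) or E6.2 (-0.39). Levels are CPM, that is counts scaled to the TMM-normalized library size, ± SD over 3 libraries. Each adjusted p comes from the quasi-likelihood test of edgeR, adjusted by Benjamini-Hochberg over all tested genes. Called means an adjusted p under 0.05, and a fold change is the clone over the parental line unless stated.

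Of the 9 genes, 8 were expressed at a broadly similar level in A20 cells and 1 was nearly silent. To compare genes, CPM was divided by the exonic length of each gene in kilobases. In the parental line *Hdac2* was highest, at 56.9 ± 6.79 CPM per kb (SD, n = 3), above *Mta1* (46.6 ± 2.88) with no overlap between libraries. *Mta1, Mta2* (44.5 ± 1.44), *Chd4* (40.6 ± 3.04), and *Ctbp1* (38.7 ± 4.70) followed, and each overlapped the next. *Hdac1* (32.7 ± 2.20) lay below *Ctbp1* and above *Ncor1* (23.7 ± 1.37) without overlap, and *Ncor1* overlapped *Gatad2b* (22.6 ± 3.55). *Ctbp2* was last at 0.0221 ± 0.0234 CPM per kb. The order within the 8 expressed genes depended on the length used. Divided by the longest GENCODE transcript, *Gatad2b* dropped to 5.79 and *Ctbp1* to 24.6 CPM per kb, whereas *Hdac1* rose to 55.4. The gene model used for counting gave *Gatad2b* (chromosome 3, from 90341654 to 90358120 of GRCm38) 1906 exonic bases, against 7438 in its longest transcript, so its counts came from only part of the gene.

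**Figure D1:**
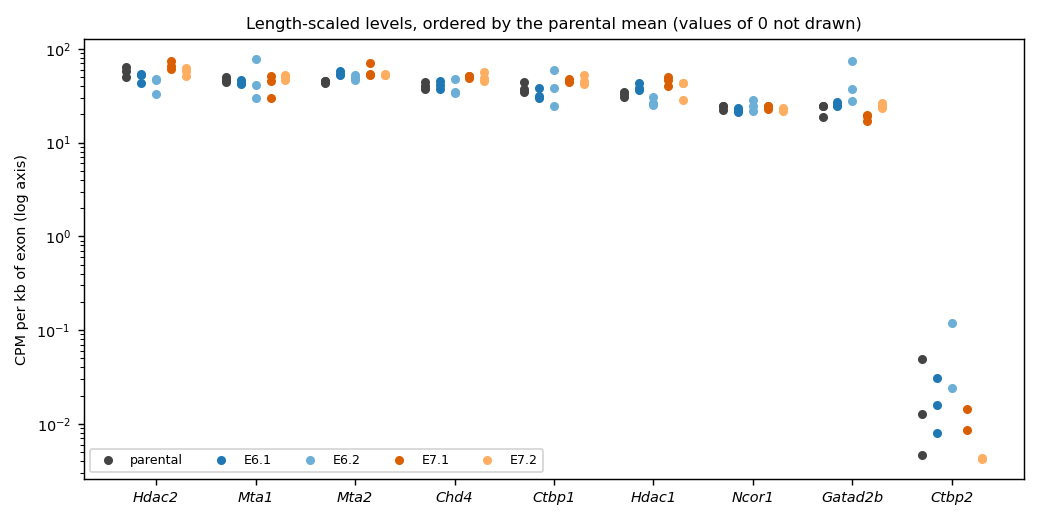
Expression of the 9 genes in CPM per kb of exon on a log axis, with 1 point per library, coloured by line and ordered by the parental mean. The 8 expressed genes lie together and *Ctbp2* (0.0221 CPM per kb in the parental line) lies far below them; 3 *Ctbp2* values of 0 are not drawn.

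The 2 CtBP genes were the clearest contrast in the set. *Ctbp2* (chromosome 7, from 132987563 to 133124354) held 10, 3, and 1 counts in the parental libraries, 6, 3, and 2 in E6.1, and 19, 5, and 0 in E6.2. It held 2, 0, and 3 counts in E7.1 and 1, 1, and 0 in E7.2. The highest count was in the E6.2 library rich in *Gm42418*, and the E7 libraries were all at or below 3 counts, the floor of detection, which corresponded to 0.0751 to 0.118 CPM depending on the library. This floor covers counting error only. No fold change is given for *Ctbp2*, and read pairs within its 314 exonic bases shared with *Fgfr2* were left out of the counting. *Ctbp1* (chromosome 5, from 33247724 to 33275004) held 1435 to 4541 counts per library. It made up 99.95 ± 0.0512% (SD, n = 3) of the summed CPM per kb of the CtBP pair in the parental line, and its mean share was lowest in E6.2, at 99.8 ± 0.263%.

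Windows before RefSeq start sites are shown for the pair, an expressed gene and an almost silent one. Those of *Hdac2* and *Gatad2b* are shown because these were the genes called between the guides. RefSeq start sites on GRCm38.p6 were given for 8 of the 9 genes, 12 start sites in all, and not for *Hdac1*. Each line gives the 250 bases before a start site, 5′ to 3′ on the strand of the gene. Capitals mark GGGCGG (the Sp1 motif), CCAAT, and the forkhead letters TGTTTAC or TATTTAC, each searched on both strands, and none of these contains another. The *Ctbp1* site is at chr5:33275005-33275254 on the minus strand, the *Ctbp2* sites are at chr7:133081861-133082110 and chr7:133015248-133015497 on the minus strand, the *Hdac2* site is at chr10:36974294-36974543 on the plus strand, and the first of 2 *Gatad2b* sites is at chr3:90292931-90293180 on the plus strand.
Ctbp1: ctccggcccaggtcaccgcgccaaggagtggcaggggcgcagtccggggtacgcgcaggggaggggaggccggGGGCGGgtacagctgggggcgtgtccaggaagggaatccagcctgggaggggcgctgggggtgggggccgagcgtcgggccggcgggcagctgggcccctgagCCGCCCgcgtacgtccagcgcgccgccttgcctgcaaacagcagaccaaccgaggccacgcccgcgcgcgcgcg
Ctbp2, first site: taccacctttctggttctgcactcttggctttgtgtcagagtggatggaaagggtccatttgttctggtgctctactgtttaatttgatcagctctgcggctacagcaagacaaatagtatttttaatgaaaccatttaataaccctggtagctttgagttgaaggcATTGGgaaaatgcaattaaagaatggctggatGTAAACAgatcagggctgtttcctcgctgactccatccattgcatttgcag
Ctbp2, second site: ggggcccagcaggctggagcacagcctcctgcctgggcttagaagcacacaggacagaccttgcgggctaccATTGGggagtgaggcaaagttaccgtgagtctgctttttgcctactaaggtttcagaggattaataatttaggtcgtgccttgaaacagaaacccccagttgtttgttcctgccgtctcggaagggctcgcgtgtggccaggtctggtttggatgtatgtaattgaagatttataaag
Hdac2: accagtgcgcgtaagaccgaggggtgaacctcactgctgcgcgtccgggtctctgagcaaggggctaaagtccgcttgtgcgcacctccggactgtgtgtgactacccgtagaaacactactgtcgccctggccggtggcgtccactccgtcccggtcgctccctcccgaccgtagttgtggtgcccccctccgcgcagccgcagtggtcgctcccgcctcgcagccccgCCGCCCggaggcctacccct
Gatad2b: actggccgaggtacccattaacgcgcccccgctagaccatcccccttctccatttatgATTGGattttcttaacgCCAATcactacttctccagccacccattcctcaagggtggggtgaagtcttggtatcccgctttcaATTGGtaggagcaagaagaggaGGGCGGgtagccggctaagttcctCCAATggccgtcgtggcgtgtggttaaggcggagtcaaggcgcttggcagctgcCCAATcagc

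The *Ctbp1* window was 77.6% GC with a CpG ratio (observed over the number its base composition gives) of 0.844, and it held 2 GGGCGG matches. The *Ctbp2* windows were 42.4 and 51.6% GC, with CpG ratios of 0.18 and 0.432, and held 0 GGGCGG matches. Both lie inside the gene as counted, whose 5′ end on the minus strand was at 133124354, so neither describes that end. The medians over 32851 RefSeq promoters were 52.4% GC and a CpG ratio of 0.373. The letters GGGCGG were present at 1 or more start sites of each of *Mta1, Mta2, Hdac2, Chd4, Gatad2b, Ctbp1*, and *Ncor1*, and in 32.7% of all promoters. The forkhead letters occurred once in the first *Ctbp2* window and once in a *Ncor1* window (chr11:62438516-62438765), against 5.76% of all promoters. This *Ncor1* window also lies inside the gene as counted. The printed *Gatad2b* window held 5 CCAAT matches and that of its second start site (chr3:90293836-90294085) held 1, a motif present in 33.8% of all promoters. Both *Gatad2b* windows lie upstream of the gene as counted, which began at 90341654, so neither adjoins the counted exons. A match describes the letters only.

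None of the 8 tested genes was called in any clone against the parental line. Of all tested genes, 0.324% were called in E6.1 and 1.17% in E6.2, and for E7.1 and E7.2 these backgrounds were 1.22 and 0.295%, so a count of 0 of 8 was near the background in each. The E7.1 background moved most, from 32 genes called without parental replicate 2 to 988 without parental replicate 1, where 169 were called with all libraries. At an unadjusted p under 0.05 there were 1, 2, 2, and 0 of 8 in the same order, against 6.71, 13.1, 19.95, and 13.3% of all tested genes. DESeq2 called 0, 1, 1, and 0 of 8, which were *Gatad2b* in E6.2 and *Mta2* in E7.1, against 1.11, 2.86, 8.32, and 1.83% of all tested genes. The median log2 fold change over the 8 was -0.03 in E6.1 and 0.08 in E6.2 but 0.23 in E7.1 and 0.18 in E7.2, where the medians of all tested genes lay between -0.02 and 0.06. The clones share the 3 parental libraries, so these values are not independent of each other.

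**Figure D2:**
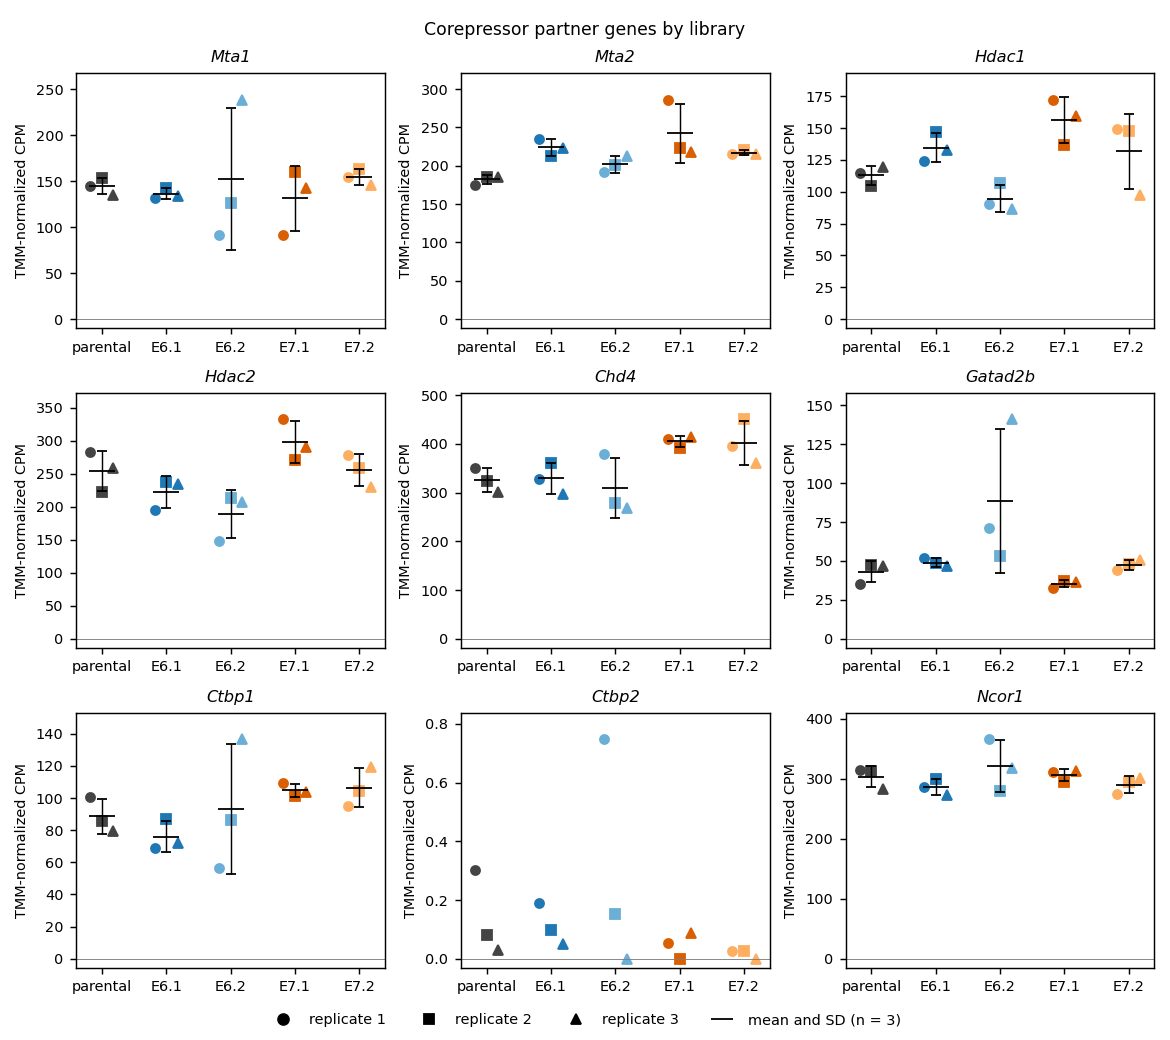
TMM-normalized CPM of the 9 genes in every library of the 5 lines, with the replicate number as the symbol and the mean and SD (n = 3) in black; none is drawn for *Ctbp2*, whose counts were 0 to 19. *Mta2* was higher in all 12 clone libraries than in the parental ones, *Ncor1* was level, and E6.2 replicate 3 lies far above its line in *Mta1, Gatad2b*, and *Ctbp1*.

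Among the scaffold subunits of NuRD, *Mta2* (chromosome 19, from 8941875 to 8952303) showed the most regular pattern. It was at 175, 186, and 185 CPM in the parental libraries, 236, 213, and 223 in E6.1, and 191, 200.4, and 213 in E6.2. In E7.1 it was at 286, 223, and 218 CPM, and in E7.2 at 215, 221, and 215. Each of the 12 clone libraries was above each parental library, which held for 0.568% of the tested genes. The log2 fold changes were nevertheless small, 0.41 ± 0.12 (SE) in E7.1 and 0.25 ± 0.12 in E7.2, 0.30 ± 0.12 in E6.1 and 0.15 ± 0.12 in E6.2, and none was called (adjusted p = 0.0908, 0.392, 0.636, and 0.624). In E7.1 the 95% interval of the fold change was 1.11 to 1.60, and the adjusted p was 0.021 without the 3 libraries that stood apart, a setting under which 18.4% of all tested genes were called.

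*Mta1* (chromosome 12, from 113098278 to 113137206), its paralog, had the largest spread between replicates of the set. It was at 145, 154, and 136 CPM in the parental line but at 92.0, 127, and 239 in E6.2 and at 91.9, 160.4, and 142 in E7.1. The lowest and highest libraries of E6.2 thus enclosed every other library but 1, and the SD within lines was 0.37 on the log2 scale, against a median of 0.31 for all tested genes. The log2 fold changes lay between -0.14 and 0.09, with 95% intervals reaching from -0.72 to 0.68. *Mta1* made up 51.1 ± 1.75% of the summed CPM per kb of the Mta pair in the parental line. This share depends on the length used, and divided by the longest GENCODE transcript *Mta1* (51.2 CPM per kb) was below *Mta2* (58.1). By exonic length, the clones were as follows. *Mta1* made up 44.6 ± 2.28% in E6.1 and 41.6 ± 10.3% in E7.1, and 48.0 ± 10.6% in E6.2 and 48.4 ± 1.10% in E7.2. The difference from the parental line in E7.1, -9.53 percentage points, was -3.61 without its replicate 1, which was at 29.7% where the other two were at 48.7 and 46.3%. In E6.1 and E7.1 all 3 libraries lay below the parental ones (exact two-sided permutation test, p = 0.1, the smallest that 3 against 3 libraries allow, adjusted p = 0.24 over 12 tests of shares).

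Neither deacetylase was called in any clone. Their log2 fold changes had opposite signs in E6.1 and the same sign in the other 3 clones. *Hdac1* (chromosome 4, from 129516104 to 129542713) was at 115, 104, and 119 CPM in the parental libraries, 124, 147, and 132 in E6.1, and 90.6, 107, and 86.5 in E6.2. It was at 172, 137, and 159 CPM in E7.1 and at 149.6, 148, and 97.7 in E7.2. E6.1 and E7.1 lay above the parental libraries without overlap, and the low E7.2 value came from the library rich in mitochondrial counts. The largest log2 fold change, in E7.1, was 0.47 ± 0.16 (SE, adjusted p = 0.128). *Hdac2* (chromosome 10, from 36974544 to 37001889) was at 283, 223, and 258 CPM in the parental libraries, 195, 238, and 235 in E6.1, and 148, 213, and 207 in E6.2. It was at 332, 270.2, and 291 CPM in E7.1 and at 278, 259, and 231 in E7.2. All E6.2 libraries were below the parental ones, with a log2 fold change of -0.43 ± 0.16 (SE, adjusted p = 0.293), and the other clones overlapped them.

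*Hdac1* made up 36.6 ± 1.85% of the summed CPM per kb of the *Hdac1* and *Hdac2* pair in the parental line and a larger share in each clone mean. The share was 44.0 ± 1.60% in E6.1 and 40.5 ± 0.938% in E7.1, and it was 39.6 ± 4.60% in E6.2 and 39.7 ± 3.75% in E7.2. The libraries of E6.1 and E7.1 did not overlap the parental libraries (exact two-sided permutation test, p = 0.1 in each, adjusted p = 0.24), whereas those of E6.2 (p = 0.4) and E7.2 (p = 0.3) did. This ratio within a library does not depend on its normalization, but it does depend on the gene lengths used.

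**Figure D3:**
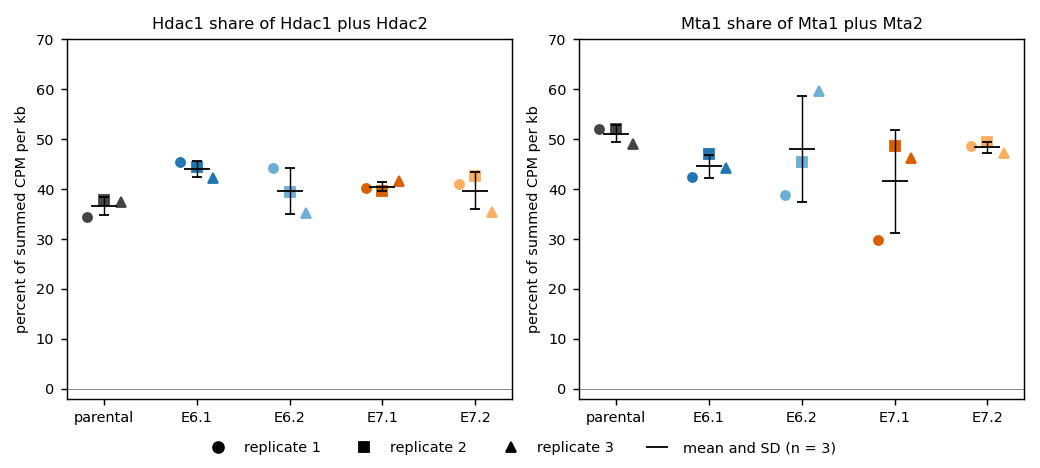
Share of the summed CPM per kb held by *Hdac1* (left) and *Mta1* (right) in each pair of paralogs, in percent, by library, with the mean and SD (n = 3). The *Hdac1* share was 36.6% in the parental line and 39.6 to 44.0% in the clones; the *Mta1* share was 51.1% and 41.6 to 48.4%, with 1 low library in E7.1.

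*Chd4* (chromosome 6, from 125095981 to 125130591), the remodelling ATPase, was at 351, 324, and 302 CPM in the parental libraries and at 329, 362, and 298 in E6.1. It was at 379.6, 279, and 269 CPM in E6.2, 410.4, 391, and 413 in E7.1, and 395, 450.2, and 362 in E7.2. All 6 E7 libraries were above the 3 parental libraries, as in *Mta2*, which held for 5.47% of the tested genes. The log2 fold changes of 0.31 ± 0.15 (SE) in E7.1 and 0.30 ± 0.15 in E7.2 were not called (adjusted p = 0.27 and 0.408).

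*Gatad2b* had the largest fold change of the set. It was at 35.3, 47.2, and 46.9 CPM in the parental libraries, 51.8, 48.5, and 46.5 in E6.1, and 71.4, 53.4, and 141 in E6.2. In E7.1 it was at 32.6, 37.2, and 36.8 CPM, and in E7.2 at 44.1, 48.0, and 50.7. All E6.2 libraries were above those of every other line, replicate 2 narrowly (53.4 against 51.8 CPM in the highest E6.1 library) and replicates 1 and 3, both of which stood apart, by far more. The log2 fold change in E6.2 was 1.04 ± 0.26 (SE, adjusted p = 0.0847) and ranged from 0.53 to 1.30 when single libraries were left out. It was 0.56 (adjusted p = 0.0829) with E6.2 and E7.2 both short of replicate 3, and 0.31 (adjusted p = 0.589) without the 3 libraries that stood apart, a fit that left E6.2 with 1 library and assumed it to vary like the others.

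*Ctbp1* was at 100.4, 85.8, and 79.4 CPM in the parental libraries, 68.9, 87.1, and 71.9 in E6.1, and 56.5, 86.5, and 137 in E6.2. It was at 109, 101, and 104 CPM in E7.1, above the parental libraries without overlap, and at 95.3, 105, and 119 in E7.2. The log2 fold changes lay between -0.22 and 0.27, and none was called (lowest adjusted p = 0.598). *Ncor1* (chromosome 11, from 62316426 to 62458541) was the steadiest gene of the set, at 304 ± 17.5 CPM (SD, n = 3) in the parental line, 286 ± 13.4 and 321 ± 43.3 in E6.1 and E6.2, and 307 ± 9.90 and 290.1 ± 13.8 in E7.1 and E7.2. Its line means spanned 0.16 on the log2 scale, where the median of all tested genes was 0.59. The 95% intervals of its fold change in the 4 clones lay between 0.783 and 1.27.

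The libraries of a clone and of the parental line did not overlap for 2 of the 8 genes in E6.1, against 22.5% of all tested genes, and for 3 in E6.2, against 14.7%. They did not overlap for 4 genes in E7.1 (background 32.03%) and for 2 in E7.2 (background 24.2%).

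**Figure D4:**
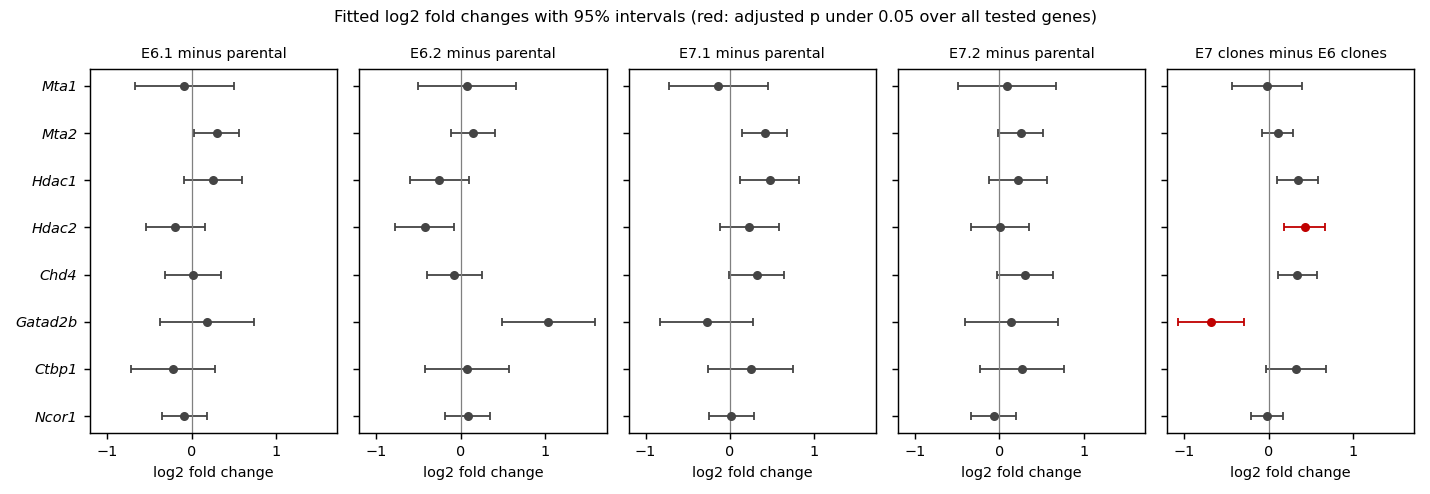
Log2 fold changes (points) and 95% intervals (bars) of the 8 tested genes in each clone against the parental line, and of the E7 against the E6 clones, with calls in red. Only *Hdac2* (0.43) and *Gatad2b* (-0.68) were called, both between the guides.

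To ask whether expression depended on the targeted exon, the mean of the E7 clones was set against that of the E6 clones. Of the 8 genes, 2 were called, against a background of 12.1% of all tested genes, and 4 had an unadjusted p under 0.05, against 30.3%. DESeq2 called 4 (*Hdac1, Hdac2, Chd4*, and *Gatad2b*), against 19.3% of all tested genes. *Hdac2* was higher in the E7 clones, with a log2 difference of 0.43 ± 0.11 (SE, 95% interval 0.18 to 0.67, adjusted p = 0.0312). *Gatad2b* was lower in them, by a log2 difference of -0.68 ± 0.18 (SE, 95% interval -1.07 to -0.29, adjusted p = 0.0318). The E7 and E6 libraries overlapped for both genes. *Chd4* (0.34 ± 0.11, adjusted p = 0.0555) and *Hdac1* (0.35 ± 0.11, adjusted p = 0.0629) were close to the threshold, *Ctbp1* was at 0.33 ± 0.16 (adjusted p = 0.195), and *Mta1, Mta2*, and *Ncor1* were at -0.02, 0.11, and -0.02. With 2 clones per guide, a difference between the guides and one between single clones cannot be told apart.

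In single pairs of clones, *Hdac2* was called in E7.1 against E6.2 (0.65, adjusted p = 0.0189) but not in E7.1 against E6.1 (0.42, adjusted p = 0.146), E7.2 against E6.2 (0.43, adjusted p = 0.167), or E7.2 against E6.1 (0.20, adjusted p = 0.627). *Gatad2b* was likewise called in E7.1 against E6.2 (-1.32, adjusted p = 0.00807) and not in the other pairs, and in E7.2 against E6.1 its difference was -0.04 (adjusted p = 0.961). *Hdac1* was called in E7.1 against E6.2 as well (0.72, adjusted p = 0.0133). In that pair 16.9% of all tested genes were called, and in the others 3.24% (E7.1 against E6.1), 0.352% (E7.2 against E6.1), and 2.24% (E7.2 against E6.2). When each of the 15 libraries was left out in turn, *Hdac2* lost its call in 6 fits and *Gatad2b* in 7, with adjusted p values up to 0.0962 and 0.0829. The libraries whose loss ended both calls were replicates 1 and 3 of E6.1, 1 and 3 of E7.1, and 1 and 2 of E7.2, and that of E7.1 replicate 2 ended the call of *Gatad2b* alone. Without the 3 libraries that stood apart, 5 of the 8 genes were called, against 26.02% of all tested genes. These were *Hdac2* (0.40), *Hdac1* (0.36), *Chd4* (0.47), *Ctbp1* (0.35), and *Gatad2b*, whose difference shrank to -0.32 (adjusted p = 0.0464).

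Clones made with the same guide were also compared. Of the 8 genes, 0 were called in E6.2 against E6.1 (background 1.24%) and 0 in E7.2 against E7.1 (background 0.59%) by edgeR, with 2 and 0 at an unadjusted p under 0.05 (backgrounds 12.9 and 13.3%) and 1 and 0 called by DESeq2 (backgrounds 3.22 and 2.06%). The 2 were *Gatad2b* (0.86 ± 0.26, SE, adjusted p = 0.161) and *Hdac1* (-0.51 ± 0.16, adjusted p = 0.184) in E6.2 against E6.1. In a test for any difference among the 5 lines, 1 of the 8 was called, *Gatad2b* (adjusted p = 0.034, background 6.28%), and 4 had an unadjusted p under 0.05 (background 27.8%). The call of *Gatad2b* was lost on leaving out any 1 of 10 libraries, and without the 3 libraries that stood apart (adjusted p = 0.0609). *Hdac1* (adjusted p = 0.0686), *Hdac2* (0.102), *Mta2* (0.173), and *Chd4* (0.198) came next, and *Mta1* was last (0.915).

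Tested genes within 5 Mb of a member were summarized to see whether a whole region moved. In E7 against E6 the 40 genes near *Hdac2* had a median log2 difference of -0.11, where *Hdac2* itself was at 0.43. Within 2 Mb there were only 3 tested genes, and their median had the other sign, at 0.09. The 145 genes near *Gatad2b* had a median of -0.08, where *Gatad2b* was at -0.68, and the medians near the other 6 genes lay between -0.12 and 0.14.

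Across the 15 libraries, log2 CPM of *Hdac1* and *Hdac2* had the highest correlation of any 2 members (Pearson r = 0.748). Over the 12 libraries without those that stood apart it was 0.662, below those of 4 other pairs, of which *Hdac2* with *Ctbp1* was highest (0.806). *Gatad2b* ran opposite to *Hdac1* (r = -0.721, and -0.492 over the 12) and *Hdac2* (-0.676 and -0.878). The correlation of *Mta1* with *Ctbp1* was 0.593 with all libraries and -0.00881 without those 3. Outside the complexes, the gene most like each member over 15 libraries was *Hars* for *Hdac1* (r = 0.968), *Khdrbs1* for *Hdac2* (0.967), *Agap3* for *Ctbp1* (0.967), *Usf2* for *Gatad2b* (0.939), *Ssr2* for *Mta2* (0.937), *Helz2* for *Chd4* (0.928), *Dok1* for *Mta1* (0.914), and *Srcap* for *Ncor1* (0.894). These describe the libraries, which share depth, normalization, and line.

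The other genes of the same complexes were read from a list of 34, all of which were tested. Among 9 other NuRD genes, 0 were called in any clone against the parental line by edgeR, with 2 and 0 at an unadjusted p under 0.05 in E6.1 and E6.2 (backgrounds 6.71 and 13.1%), and 4 and 2 in E7.1 and E7.2 (backgrounds 19.95 and 13.3%). The backgrounds of called genes were those given above, 0.295 to 1.22%. In E7 against E6, where 12.1% of all tested genes were called, 1 of the 9 was called higher, *Rbbp7*, a histone-binding subunit (0.44 ± 0.13, SE, adjusted p = 0.0444), whose call was lost in 12 of 15 fits that left out a library and with the replicate block. *Chd3*, the alternative ATPase, was at 54.6 ± 7.61 CPM in E6.1 and 122 ± 38.5 in E6.2, a log2 difference of 1.17 ± 0.25 (SE, adjusted p = 0.0323, background 1.24%) that was lost in 6 of the 15 fits, among them those without E6.2 replicate 1 or 3.

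Of 12 genes of CtBP-associated complexes, 1 was called against the parental line in E7.1 (background 1.22%) and 2 in E7 against E6 (background 12.1%). *Zeb2*, a zinc-finger repressor that binds CtBP, was called in both, and its E7.1 libraries lay below those of every other line. It was at 12.6, 19.9, and 22.5 CPM in the parental libraries and at 4.58, 6.97, and 6.59 in E7.1, without overlap. E6.1 had 22.9, 12.1, and 17.7 CPM, E6.2 had 20.4, 15.7, and 12.2, and E7.2 had 10.96, 12.02, and 15.97, all overlapping the parental line. *Zeb2* fell by 1.60 on the log2 scale in E7.1 (adjusted p = 0.0222), a call lost without any 1 of the 3 E7.1 libraries or without parental replicate 2 or 3. It was lower in the E7 than in the E6 clones (-0.92 ± 0.20, SE, adjusted p = 0.0145), and this was called in all 15 such fits, with adjusted p values up to 0.0491. Both pairs with E7.1 were called (-1.54 against E6.1, adjusted p = 0.0169, and -1.41 against E6.2, adjusted p = 0.00908), and those with E7.2 were not (-0.44, adjusted p = 0.547, and -0.31, adjusted p = 0.599). *Ehmt1*, a histone H3 lysine methyltransferase, was higher in the E7 clones (0.34 ± 0.10, SE, adjusted p = 0.0498), and lost this call in 10 of the 15 fits and with the replicate block. *Phf21a*, a CoREST subunit, was at 69.0 ± 11.6 CPM in the parental line and 45.3 ± 12.1 in E7.1 (log2 fold change -0.61, adjusted p = 0.093), and it was called only in E7.1 against E6.2 (-0.67, adjusted p = 0.0265). So was *Rcor3*, a CoREST scaffold protein (-0.96, adjusted p = 0.0298). In that pair 16.9% of all tested genes were called, and in E7.1 against E6.1 3.24% were.

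Among the 5 other NCoR/SMRT genes, 0 were called in any clone against the parental line by edgeR, against 0.295 to 1.22% of all tested genes, with 1 at an unadjusted p under 0.05 in each clone, against 6.71 to 19.95%. *Hdac3*, the deacetylase of this complex, was at 79.2 ± 3.94 CPM in the parental line, 95.7 ± 2.82 and 87.3 ± 4.78 in E6.1 and E6.2, and 106 ± 8.45 and 101 ± 5.96 in E7.1 and E7.2. Its log2 fold changes in this order were 0.27, 0.14, 0.42, and 0.35 (adjusted p = 0.576, 0.583, 0.0619, and 0.222), and the E6.2 libraries overlapped the parental ones. *Gps2*, another subunit, was at 21.7 ± 3.20 CPM in the parental line and 31.5 ± 10.6 in E6.2 (log2 fold change 0.54, adjusted p = 0.335). It was called only in E7.1 against E6.2 (-0.73, adjusted p = 0.0431), where 16.9% of all tested genes were called.

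*Sap30*, a subunit of the Sin3 complex that also holds *Hdac1* and *Hdac2*, had the smallest p of the 34 listed genes in the test for any difference among the 5 lines (adjusted p = 3.49e-05). It was at 69.1, 60.7, and 62.2 CPM in the parental libraries, 106, 103, and 111 in E6.1, and 24.8, 36.2, and 38.0 in E6.2. It was at 48.4, 45.8, and 41.2 CPM in E7.1 and 94.7, 88.3, and 108 in E7.2. E6.1 and E7.2 were thus above the parental line and E6.2 and E7.1 below it, with no overlap, so the clones of each guide lay on opposite sides. Against the parental line only E6.2 was called (-0.96 ± 0.15, SE, adjusted p = 0.00432). The clones of 1 guide differed in both cases, by -1.69 in E6.2 against E6.1 (adjusted p = 2.67e-05) and by 1.10 in E7.2 against E7.1 (adjusted p = 0.00202), and these 3 calls were present in all 15 fits that left out a library. Of the 8 Sin3 genes, *Sap30* alone was called in any of these comparisons, against backgrounds of 1.17% in E6.2, 1.24% in E6.2 against E6.1, 0.59% in E7.2 against E7.1, and 6.28% for any difference. *Sin3b* was at 55.6 ± 3.63 CPM in the parental line and 83.5 ± 28.0 in E6.2 (log2 fold change 0.59, adjusted p = 0.306).

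**Figure D5:**
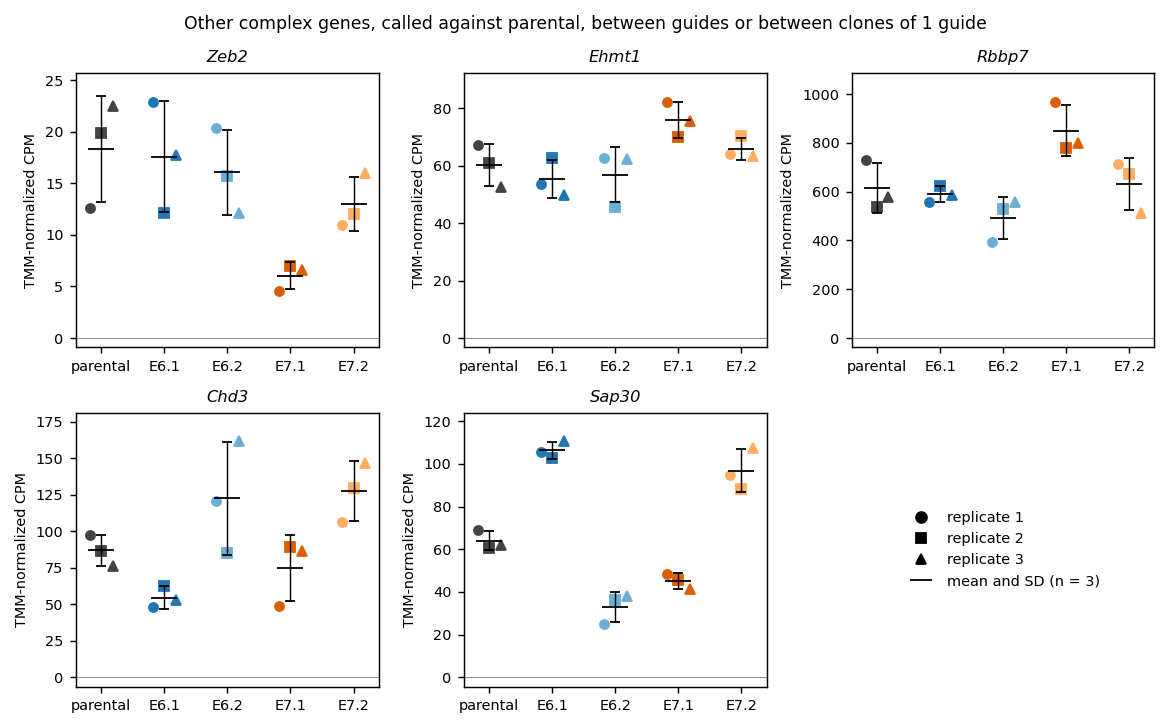
TMM-normalized CPM by library of the 5 other complex genes called against the parental line, between the guides, or between clones of 1 guide, with the mean and SD (n = 3). *Sap30* separates E6.1 and E7.2 (88.3 to 111 CPM) from E6.2 and E7.1 (24.8 to 48.4 CPM), whereas *Zeb2* is lowest in E7.1.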

How the data were processed

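Bulk RNA sequencing covered the parental A20 line and 4 Foxp1 CRISPR clones (3 replicates each, 15 libraries). The authors deposited raw counts per gene, made, per the file headers, from HISAT alignments with featureCounts 1.5.0. The annotation was GRCm38 to which ERCC spike-ins had been added. Counting was of read pairs without strand, pairs overlapping several genes were left out, and how duplicate reads were treated is not given in the sources used here. The 92 spike-ins had 0 counts and were left out. No libraries were identical. Groups and replicate numbers came from the sample titles.

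Genes were filtered with filterByExpr and normalized with TMM, and edgeR 4.0.16 (R 4.3.3) fitted a quasi-likelihood model with the line as the only factor to all libraries, which share 1 estimate of the spread. P values were adjusted by Benjamini-Hochberg over 13904 genes within each comparison and called under 0.05. Correlations used log2 CPM with a prior count of 2. Shares of paralogs were compared by exact permutation tests. The method was tested on simulated data. Alternatives were DESeq2 size factors in edgeR, DESeq2 1.42.0, no count filter, a replicate block, the newer quasi-likelihood method, only the lines compared, and removal of each library. Removal of E6.2 replicate 3 and E7.2 replicate 3, with or without E6.2 replicate 1, and the clone pairs were added after seeing the data.

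The members, the complex lists, and the comparisons were chosen with earlier results of these data known. Genes were named by a rule: all members, *Foxp1*, every listed complex gene called in a comparison, the 2 in each list with the smallest p for any difference among lines, and the gene most correlated with each member. Libraries sharing a replicate number had deviations that correlated with a mean r of 0.0531 (range -0.124 to 0.426 over 30 pairs), so the numbers were not used as a pairing. Between E6.2 and E7.2 alone, all 3 such correlations were over 0.1 (0.174, 0.276, and 0.426). Among their pairs with different numbers, E6.2 replicate 2 with E7.2 replicate 1 was at 0.311. E6.2 replicate 1 with E7.2 replicate 2 was at 0.17, and the others lay between -0.366 and -0.214. Gene sequences before start sites came from RefSeq (GRCm38.p6), and the longest transcripts from GENCODE. Protein sequences were not used here.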

Additional observations from a re-analysis of the deposited data

Results flagged for a closer look

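These results were singled out because 2 clones or guides differed from each other in a test of the difference itself (edgeR's quasi-likelihood test). Between the E7 and E6 clones, *Hdac2* was higher by a log2 difference of 0.43 (adjusted p = 0.0312) and *Gatad2b* lower, at -0.68 (adjusted p = 0.0318). In the same comparison *Zeb2* was lower (-0.92, adjusted p = 0.0145), and *Rbbp7* (0.44, adjusted p = 0.0444) and *Ehmt1* (0.34, adjusted p = 0.0498) were higher. These were 2 of 8 members, 1 of 9 other NuRD genes, and 2 of 12 CtBP-associated genes, against 12.1% of all tested genes. Of 5 NCoR/SMRT and 8 Sin3 genes, 0 were called. As each guide had 2 clones, a difference between the guides cannot be told apart from one between single clones. In single pairs of clones, *Hdac2* and *Gatad2b* were called only in E7.1 against E6.2. With single libraries left out, *Hdac2* lost its call in 6 of 15 fits and *Gatad2b* in 7. *Ehmt1* lost it in 10, *Rbbp7* in 12, and *Zeb2* in 0. Between clones of 1 guide, *Chd3* was higher in E6.2 than in E6.1 (1.17, adjusted p = 0.0323, background 1.24%), a call lost in 6 such fits. *Sap30* was lower in E6.2 than in E6.1 (-1.69, adjusted p = 2.67e-05) and higher in E7.2 than in E7.1 (1.10, adjusted p = 0.00202, background 0.59%).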

How the results depend on the processing

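The number of the 8 tested genes called in E7 against E6, 2 as reported, was 1 with no filter on low counts, 4 with DESeq2, 5 with E6.2 and E7.2 both short of replicate 3, 5 without the 3 libraries that stood apart, and 0 to 4 with single libraries left out. The share of all tested genes called moved with it, from 12.1 to 19.3% with DESeq2 and to 35.1% without those 2 libraries. The count in E6.2 against the parental line went from 0 to 1 with no filter and with DESeq2 (*Gatad2b*). In these 2 settings 208 of 24777 genes and 2.86% of all tested genes were called. The count in E7.1 went to 1 with DESeq2 (*Mta2*, background 8.32%). It was 2 with E6.2 and E7.2 both short of replicate 3 (*Hdac1* and *Mta2*, background 15.9%). In E6.2 against E6.1 the count went from 0 to 1 with DESeq2 (background 3.22%). Leaving out single libraries gave 0 to 1 in each of these 3. The count for any difference among the lines, 1 as reported, was 4 with DESeq2 and 4 without replicate 3 of E6.2 and E7.2. In these settings 22.5 and 30.1% of all tested genes were called. The count was 0 to 2 with single libraries left out, and the call of *Gatad2b* was lost without all 3 libraries that stood apart. The counts in E6.1 and E7.2 against the parental line and in E7.2 against E7.1 were 0 under every alternative run. The cause of these changes was not tested.

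With a replicate block, 2 genes were called in E7 against E6 (*Hdac2*, adjusted p = 0.0475, and *Gatad2b*, 0.0332), 1 for any difference, and 0 elsewhere, as without it. The block took away the calls of *Rbbp7* and *Ehmt1*. Of 15 libraries, 7 correlated best with one of their own number. The 3 same-numbered pairs of E6.2 and E7.2 all correlated above 0.1. So did E6.2 replicate 2 with E7.2 replicate 1 (0.311) and E6.2 replicate 1 with E7.2 replicate 2 (0.17), and their other pairs were negative. Whether E6.2 and E7.2 share a replicate structure was not tested.

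The difference of the *Ctbp1* share from the parental line in E6.1 changed sign, to 0.00589, 0.0163, or 0.0193 percentage points, without parental replicate 2 or 3 or E6.1 replicate 1, and ranged from -0.0323 to 0.0193 over single libraries left out. In E6.2 it became 0.0207 points without replicate 1 and was lowest at -0.222. That of the *Mta1* share in E6.2 became 1.43 points without replicate 1, and lay between -8.99 and 1.43 over single libraries left out. Among the fold changes of members that were not called, 44 of 1296 alternative values had the other sign. With a window of 2 Mb, 9 of the medians of neighbouring genes moved by 0.1 or more on the log2 scale.

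Over all tested genes, the calls under the alternatives that kept all libraries or left out 2 or 3 together ranged from 40 to 193 in E6.1 (45 as reported), 47 to 398 in E6.2 (163), 142 to 2560 in E7.1 (169), 18 to 454 in E7.2 (41), 1402 to 4878 in E7 against E6 (1677), 65 to 500 in E6.2 against E6.1 (173), 41 to 287 in E7.2 against E7.1 (82), and 727 to 4182 for any difference (873). With single libraries left out, these ranges were, in the same order, 31 to 74, 87 to 231, 32 to 988, 15 to 193, 468 to 3802, 109 to 286, 46 to 133, and 350 to 2760. *Ctbp2* held 0 to 19 counts per library, too few to be tested, and the other members held 1167 counts or more in every library.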
